A study of Triticum aestivum with 4 samples.

Results

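The genes described here are the circadian clock genes of bread wheat (Triticum aestivum, genotype UAS-375), as they were expressed in roots. Their transcripts were taken from a table of 147297 assembled transcripts by the name of the best protein match. A row was kept if it had values per library, a best match in Aegilops, Triticum, Hordeum or Brachypodium, and one of these names in its protein or domain description: response regulator-like PRR, LHY, CCA1, GIGANTEA, EARLY FLOWERING 3 or 4, ADAGIO, REVEILLE or LUX. With the names read as whole words, 44 of the 91482 transcripts with values per library were kept, in 17 assembled genes. Read as letters inside longer words, the same names also catch efflux carriers, POLLUX channels and the auxin enzyme YUCCA11, which gives 134 transcripts, and the added ones were left out. Of the 44, 43 had their best match in Aegilops tauschii, the goatgrass that gave wheat its D genome, and 1 in Brachypodium distachyon. No transcript with values per library was named CCA1, EARLY FLOWERING 3 or LUX.

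Roots came from 45-day-old plants whose seeds had been held at hypergravity (10 g for 12 h) before sowing, or from plants of untreated control seeds. All plants carried the same genotype and grew in a greenhouse in upright pipes. Each group had 2 stranded mRNA libraries, and the recovered counts summed to between 46604327 and 53346750 per library. The labels name no hour of harvest. Whether both groups were harvested at the same hour is therefore not known, and the part of the hour in the values was not tested. The labels also do not tie the 2 libraries of a condition to different plants. The p-values therefore cover library-to-library spread only, which may be technical. Markers of roots held 0.897% and 0.805% of counts in hypergravity libraries and 0.964% and 1.07% in control libraries, over 350 transcripts. The 7 green-tissue marker transcripts held 0.004% and 0.00342% in hypergravity and 0.00295% and 0.003% in control.

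The plant clock is a set of transcription factors that switch each other off in turn through the day. In Arabidopsis, the Myb factors LHY and CCA1 are made around dawn, the pseudo-response regulators (PRR proteins) follow one after another from morning to dusk and repress LHY and CCA1, and an evening complex of ELF3, ELF4 and LUX acts at night. GIGANTEA and the ADAGIO proteins, which carry a light-sensing domain, control how long PRR1 and other clock proteins last. In grasses the same families set heading time, and Arabidopsis roots keep a clock that also takes its time from the shoot.

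PRR95, an LHY-like gene, an ELF4-like gene and the ADAGIO gene adagio-like 3 were lower in hypergravity roots, and LHY was higher. Of the 44 clock transcripts 2 were called higher (4.55%) and 7 lower (15.9%) in hypergravity (limma, adjusted p under 0.05 over all 91482 transcripts). The other 35 were not called, beside 68176 of all 91482 transcripts. Among all transcripts 13.5% were called higher and 11.9% lower. The median log2 fold change was 0.10 for the clock transcripts and -0.01 for all transcripts, and it was positive in 29 clock transcripts and negative in 15. No clock transcript was called with a change of 2-fold or more, beside 7409 of all 91482 transcripts. Both hypergravity libraries lay above both control libraries in 23 clock transcripts and below them in 9. Among all transcripts 31.9% and 32.0% lay above and below in the same way. Isoforms of a gene count repeatedly in these numbers. The 23 hold 6 PRR37, 6 REVEILLE 6-like, 3 LHY and 3 PRR73 isoforms, and the 9 hold 3 LHY-like and 2 PRR95 isoforms. The median of 0.10 and the split of 29 and 15 carry the same weighting. Summed per assembled gene, 1 of 17 clock genes was called higher and 4 lower, against 14.3% and 12.3% of all 47167 assembled genes. Levels are normalized counts (recovered counts divided by the size factor of the library), and in bulk roots fewer cells that express a gene and less RNA per cell cannot be told apart.

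**Figure D1:**
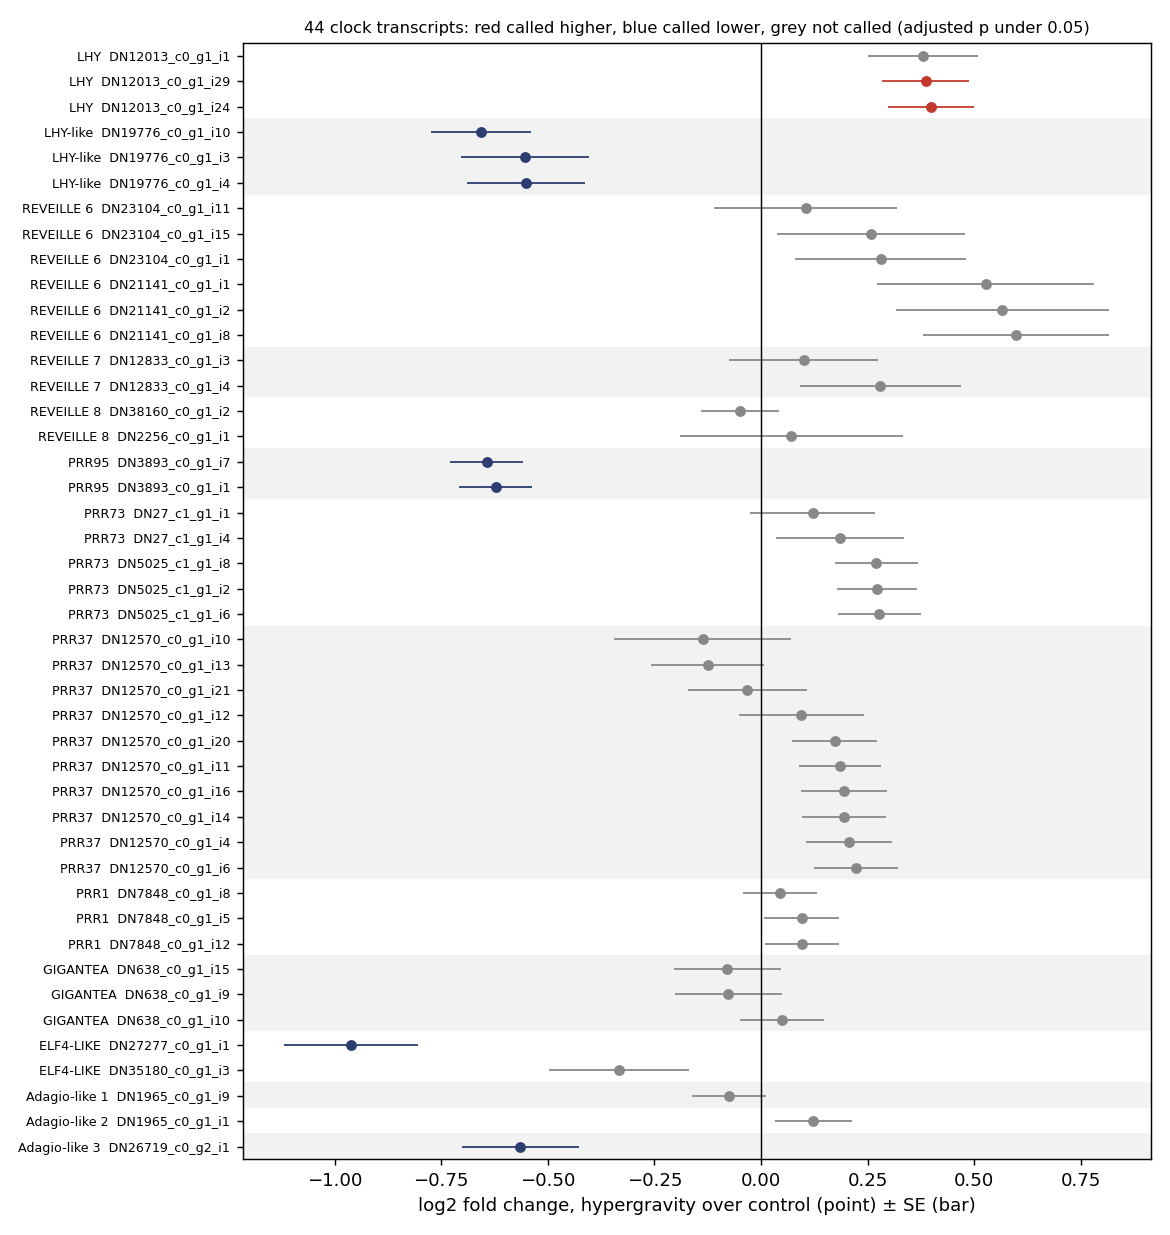
Log2 fold change of hypergravity over control (point) with its standard error (bar) for each of the 44 clock transcripts, by name. The 2 LHY transcripts in red were called higher, the 7 in blue (LHY-like, PRR95, an ELF4-LIKE and adagio-like 3) were called lower, and the grey ones were not called.

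LHY is the dawn Myb factor at the core of the clock. Its longest transcript (TRINITY_DN12013_c0_g1_i29, 3744 bases) stood at 1584 and 1842 normalized counts in the hypergravity libraries and 1345 and 1270 in the control libraries. Both hypergravity libraries were above both control libraries. The log2 fold change was 0.39 ± 0.10 (SE; limma, adjusted p = 0.0192). A second isoform (TRINITY_DN12013_c0_g1_i24) had 1269 and 1455 in hypergravity and 1062 and 1000 in control, a change of 0.40 ± 0.10 (limma, adjusted p = 0.0166). The shortest isoform (TRINITY_DN12013_c0_g1_i1) had 350.4 and 362 in hypergravity and 294 and 255 in control, and its change of 0.38 ± 0.13 was not called (limma, adjusted p = 0.0552). The 3 isoforms thus differed between the groups by nearly the same factor. The calls depended on single libraries: without control library b the adjusted p of i29 and i24 was 0.106 and 0.0943, and without hypergravity library b it was 0.0964 and 0.088.

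A separate assembled gene, matched to an LHY-like protein of goatgrass, went the other way. Its longest member (TRINITY_DN19776_c0_g1_i10) had 271 and 264 normalized counts in hypergravity and 421 and 424 in control. The gap between the groups was far wider than that between the libraries of either group. It fell by 0.66 ± 0.12 on the log2 scale (limma, adjusted p = 0.00266). The isoform i4 had 212 and 189 in hypergravity and 281 and 307 in control, and i3 had 189 and 168 against 243 and 283. Both were called, with changes of -0.55 ± 0.14 and -0.55 ± 0.15. Their calls were lost without control library b (adjusted p 0.0972 and 0.165) and without hypergravity library b (0.0821 and 0.107), while that of i10 held under every alternative run. A Myb-like DNA-binding domain was annotated in all 3 LHY isoforms and in 2 of the 3 LHY-like ones. The same assembled gene held 2 more transcripts, of an uncharacterized goatgrass protein, and its sum over 5 transcripts was 1147 and 1071 in hypergravity and 1674 and 1760 in control.

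REVEILLE proteins are Myb factors related to LHY. In Arabidopsis REVEILLE 8 activates evening genes, and REVEILLE 7 is an output factor of the clock. None of the 10 REVEILLE transcripts was called. The largest differences were in a REVEILLE 6-like gene (TRINITY_DN21141_c0_g1), whose isoform i8 had 99.1 and 94.7 normalized counts in hypergravity and 55.2 and 73.3 in control. Its log2 fold change of 0.60 ± 0.22 was not called (limma, adjusted p = 0.0711), and without control library b it was, at an adjusted p of 0.0456. The 6 transcripts of REVEILLE 6-like name were isoforms of 2 assembled genes. In all 6 the groups did not overlap, with hypergravity above (31.9% of all transcripts) and changes between 0.10 and 0.60. These are low transcripts of 41.6 to 81.7 counts on average, with a median standard error of 0.22. REVEILLE 7-like (TRINITY_DN12833_c0_g1_i4) had 115 and 102 in hypergravity and 85.8 and 92.1 in control (0.28 ± 0.19). REVEILLE 8-like (TRINITY_DN38160_c0_g1_i2), the most abundant of the family, had 1212 and 1212 in hypergravity and 1299 and 1212 in control, with groups that overlapped (-0.05 ± 0.09).

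PRR95 had the smallest p of all the clock genes. PRR95 belongs to the PRR5 and PRR9 branch of the family, whose members in Arabidopsis repress LHY and CCA1 from the morning on. The longer transcript (TRINITY_DN3893_c0_g1_i7, 2805 bases) had 4022 and 4120 normalized counts in hypergravity and 6525 and 6196 in control. It fell by 0.64 ± 0.09 on the log2 scale (limma, adjusted p = 0.000484), to 0.640 times the control mean. The shorter transcript (TRINITY_DN3893_c0_g1_i1) had 3734 and 3837 in hypergravity and 5961 and 5695 in control, and fell by 0.62 ± 0.09 (limma, adjusted p = 0.000569). The libraries of a group differed by at most 0.07 on the log2 scale in both transcripts. Across the alternatives the change of i7 lay between -0.68 and -0.60 and its adjusted p was at most 0.0263.

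**Figure D2:**
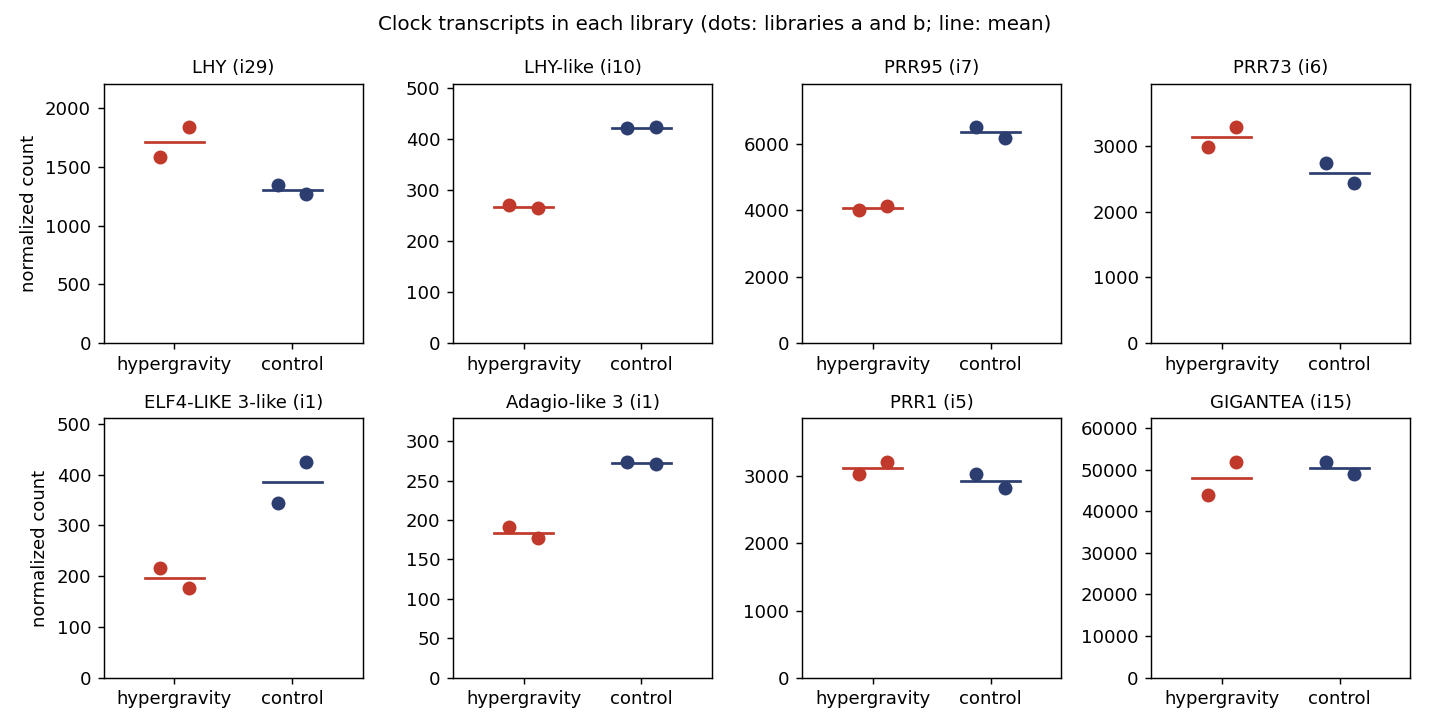
Normalized counts in each library (dots) with the group mean (line) for 8 clock transcripts, each panel from 0. Hypergravity libraries lie below control libraries for LHY-like, PRR95, ELF4-LIKE 3-like and adagio-like 3 and above them for LHY and PRR73, and the groups overlap for GIGANTEA; for PRR1 they nearly touch (3036 and 3219 in hypergravity, 3035 and 2820 in control).

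The other PRR genes were not called. PRR73, of the PRR3 and PRR7 branch, had 2977 and 3290 normalized counts in hypergravity and 2745 and 2427 in control in its longest transcript (TRINITY_DN5025_c1_g1_i6). The change was 0.28 ± 0.10 (limma, adjusted p = 0.0636). In all 3 isoforms hypergravity lay above control without overlap (31.9% of all transcripts). The isoform i2, the most abundant of the name per kilobase, had 2494 and 2635 in hypergravity and 2246 and 2007 in control (0.27 ± 0.09, limma, adjusted p = 0.0574), and its adjusted p was 0.0489 without hypergravity library a. A further PRR73 gene (TRINITY_DN27_c1_g1) had far fewer counts, and its 2 isoforms overlapped between the groups.

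PRR37, whose gene is known in wheat as the photoperiod gene Ppd-1, was assembled into 10 isoforms of 788 to 3110 bases. The 6 isoforms of at least 2800 bases, a limit set after their values were seen, had between 706 and 813 normalized counts in hypergravity and between 606 and 719 in control. In each of them both hypergravity libraries lay above both control libraries, as in 31.9% of all transcripts. Changes of these 6 isoforms lay between 0.17 and 0.22, with adjusted p between 0.13 and 0.238 (limma). The 4 shorter isoforms, at 83.4 to 336 in hypergravity and 104 to 344 in control, overlapped between the groups and had changes between -0.14 and 0.10. PRR1, the wheat counterpart of the evening gene TOC1 of Arabidopsis, had 3036 and 3219 in hypergravity and 3035 and 2820 in control in its most abundant isoform by count (TRINITY_DN7848_c0_g1_i5). Its change was 0.10 ± 0.09, and all 3 isoforms lay between 0.05 and 0.10. The receiver domain of the family was annotated in both PRR95 transcripts and in 6 PRR37 isoforms. The CCT motif, the DNA-binding end of these proteins, was annotated in 3 PRR37, 2 PRR73 and 3 PRR1 transcripts, with 1 domain listed per row.

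GIGANTEA, a large plant protein that stabilises the ADAGIO protein ZEITLUPE, was by far the most abundant clock transcript. The isoform i15 (TRINITY_DN638_c0_g1_i15, 4962 bases) had 43865 and 51900 normalized counts in hypergravity and 51889 and 48967 in control. Hypergravity library a was the lowest of the 4, and hypergravity library b and control library a were nearly equal. The log2 fold change was -0.08 ± 0.13 (limma, adjusted p = 0.689), and its sign turned without hypergravity library a (0.042) and under quantile normalization (0.18). The longest isoform (i9, 6666 bases) had 44175 and 52166 in hypergravity and 52142 and 49143 in control. The shortest (i10) had 12782 and 14203 in hypergravity and 13316 and 12744 in control, a change of 0.05 ± 0.10.

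Of the evening complex, ELF4 relatives were measured in both groups. ELF4 is a small protein that, in Arabidopsis, moves ELF3 into its nuclear sites and represses morning PRR genes. The ELF4-LIKE 3-like transcript (TRINITY_DN27277_c0_g1_i1) had 217 and 177 normalized counts in hypergravity and 344 and 426 in control. It fell by 0.96 ± 0.16 on the log2 scale, to 0.512 times the control mean, which was the largest change among the clock transcripts called (limma, adjusted p = 0.00162). The libraries of a group also differed, by 0.29 in hypergravity and 0.31 in control on the log2 scale, well below the change. The ELF4-LIKE 4-like transcript (TRINITY_DN35180_c0_g1_i3) had 147 and 127 in hypergravity and 170 and 175 in control, with no overlap, and its change of -0.33 ± 0.16 was not called (limma, adjusted p = 0.168). LUX, the DNA-binding Myb-type partner of ELF4, was listed under that name in FPKM rows alone, with 0.19 and 0.52 FPKM in hypergravity and 1.0 and 0.99 FPKM in control for its 2 goatgrass-matched transcripts, as the authors' values with no replicates. PCL1 is another name of LUX in Arabidopsis, and 2 transcripts named PCL1-like, which the names above do not take in, had values per library. The transcript TRINITY_DN8874_c0_g2_i3 had 61.5 and 46.3 normalized counts in hypergravity and 74.9 and 85.5 in control, and TRINITY_DN8874_c0_g2_i2 had 33.4 and 18.5 against 33.5 and 48.8. Both are isoforms of 1 assembled gene. Hypergravity libraries were below control libraries in both, as in 32.0% of all transcripts, but in i2 the groups nearly touched (33.4 against 33.5). The changes of -0.57 ± 0.23 and -0.68 ± 0.33 were not called (limma, adjusted p = 0.098 and 0.164).

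ADAGIO proteins are blue-light receptors of ubiquitin ligases; in Arabidopsis adagio 1 is ZEITLUPE, adagio 2 is LKP2 and adagio 3 is FKF1, which degrades repressors of the flowering gene CONSTANS. Adagio-like 3 (TRINITY_DN26719_c0_g2_i1, matched in Brachypodium) had 191 and 177 normalized counts in hypergravity and 274 and 271 in control, with no overlap. It fell by 0.56 ± 0.14 on the log2 scale (limma, adjusted p = 0.0136). Without hypergravity library b the adjusted p was 0.0642. Adagio-like 1 (TRINITY_DN1965_c0_g1_i9) had 2318 and 2472 in hypergravity and 2519 and 2523 in control, and adagio-like 2 (TRINITY_DN1965_c0_g1_i1), an isoform of the same assembled gene, had 2833 and 3147 against 2701 and 2783. Neither was called (-0.07 ± 0.09 and 0.12 ± 0.09). The first as a percentage of the second was 81.8% and 78.6% in hypergravity libraries and 93.3% and 90.7% in control libraries, and with 2 libraries per group an exact permutation test of such a value cannot go below p = 0.333.

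Levels per kilobase spanned a wide range within the clock. GIGANTEA i15 had 8840 and 10459 normalized counts per kilobase in hypergravity and 10457 and 9868 in control, which placed it at percentile 99.8 of all transcripts. The highest transcript of PRR95 followed with 1792 and 1841 in hypergravity and 2860 and 2733 in control, then PRR73 with 2035 and 2149 against 1832 and 1637, and PRR1 with 1730 and 1805 against 1692 and 1616. In control libraries PRR95 was clearly above PRR73 and PRR1, and in hypergravity libraries it was below PRR73 and close to PRR1. Adagio-like 2 and adagio-like 1 came next, at 1121 to 1306 and 1059 to 1153 per kilobase over the 4 libraries, with overlapping ranges. REVEILLE 8-like had 716 and 716 in hypergravity and 768 and 716 in control. LHY stood at 423 and 492 in hypergravity and 359 and 339 in control, and the ELF4-LIKE 3-like transcript at 214 and 175 against 340.05 and 421. By their mean over the 4 libraries PRR37, LHY-like, adagio-like 3, REVEILLE 7-like and REVEILLE 6-like were lower, although in hypergravity libraries alone PRR37 (264 and 264) was above the ELF4-LIKE 3-like transcript. The lowest values were 77.0 and 73.6 in hypergravity and 42.9 and 56.9 in control for REVEILLE 6-like. All clock transcripts together took 0.294% and 0.329% of the counts in hypergravity libraries and 0.334% and 0.307% in control libraries. Isoforms that may share reads were each counted in these shares, among them GIGANTEA i15 and i9, the largest, with nearly equal counts.

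**Figure D3:**
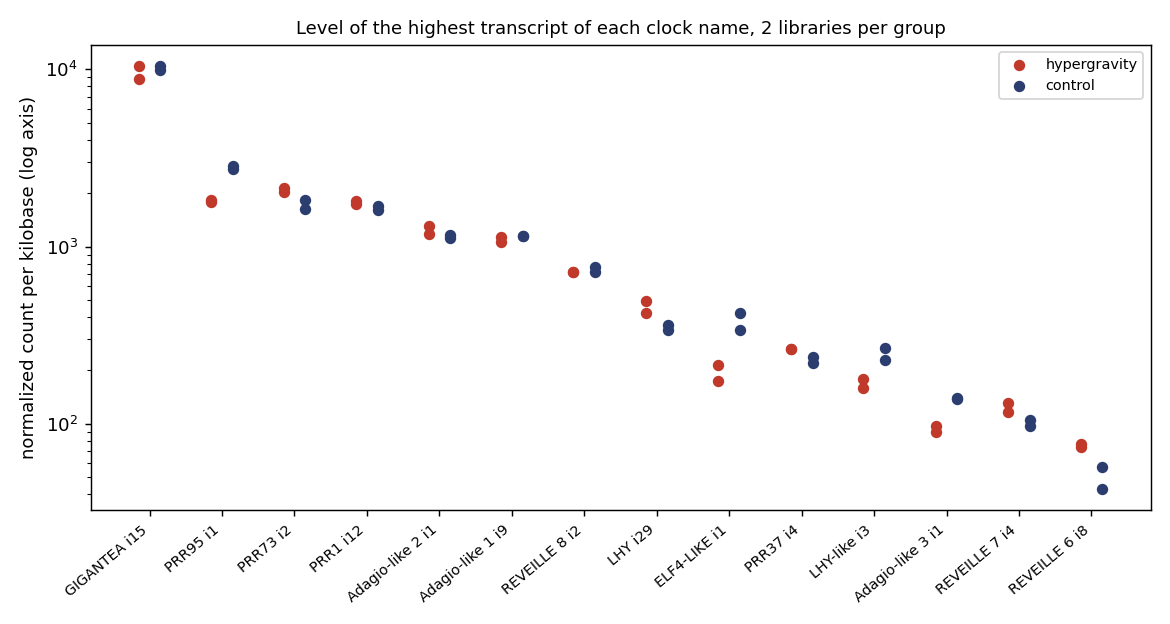
Normalized count per kilobase on a log axis for the highest transcript of each clock name, with 2 dots per group, hypergravity to the left of control. GIGANTEA stands above all others, and PRR95, second in control at 2860 and 2733, is at 1792 and 1841 in hypergravity.

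Ratios between clock genes within a library need no scaling between libraries. They were chosen after their values were seen and are given per kilobase with no test. They reuse the counts above and are no separate check. LHY (i29) over LHY-like (i10) was 3.15 and 3.77 in hypergravity and 1.72 and 1.62 in control. PRR95 (i7) over PRR73 (i6) was 1.03 and 0.953 in hypergravity and 1.81 and 1.94 in control. For this pair of isoforms the levels were close in hypergravity roots, while for the highest isoform of each gene PRR95 was below PRR73 there. LHY over PRR95 was 0.295 and 0.335 in hypergravity and 0.154 and 0.154 in control. GIGANTEA (i15) over PRR1 (i5) was 5.31 and 5.92 in hypergravity and 6.28 and 6.38 in control, although neither transcript was called. The ELF4-LIKE 3-like over the ELF4-LIKE 4-like transcript was 1.39 and 1.32 in hypergravity and 1.91 and 2.29 in control.

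Isoforms of an assembled gene are not taken as separate evidence, since they can share reads. Reads themselves were not examined. The normalized count of GIGANTEA i15 was between 99.3% and 99.6% of that of i9 in each of the 4 libraries, and PRR95 i1 was between 91.4% and 93.1% of i7. Of the 9 called transcripts 3 were LHY-like, 2 PRR95, 2 LHY, 1 ELF4-LIKE and 1 adagio-like 3, which makes 5 assembled genes. These 5 were also the genes called on sums per assembled gene, which reuse the same counts and are no separate check. ELF4-LIKE 3-like and adagio-like 3 had 1 transcript each, so their sums were the transcript values. The changes were -0.63 ± 0.08 for PRR95, -0.63 ± 0.10 for LHY-like, -0.96 ± 0.17 for ELF4-LIKE 3-like, -0.56 ± 0.15 for adagio-like 3 and 0.39 ± 0.10 for LHY (log2, SE, limma). The sums of PRR73 (TRINITY_DN5025_c1_g1) and REVEILLE 6-like (TRINITY_DN21141_c0_g1) just missed the threshold, with adjusted p of 0.0522 and 0.0537 (limma).

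Genes linked to the clock were read from 4 lists of names, with goatgrass or other pooid matches and the clock transcripts left out. Regulators that act on clock proteins or beside them had 4 of 51 transcripts called higher (7.84%) and 13 lower (25.5%), with a median of -0.20. Beside each of these lists stand 13.5% higher and 11.9% lower among all transcripts, with a median of -0.01. The called transcripts lay in 1 and 5 of the 21 assembled genes of the list. The 13 lower ones were 12 transcripts from 4 assembled genes for subunits of casein kinase II, which phosphorylates CCA1 in Arabidopsis, and 1 of SNW/SKI-interacting protein, a splicing cofactor. All 21 casein kinase II transcripts summed to 16662 and 17363 in hypergravity and 20539 and 21384 in control. The 4 higher ones were isoforms of a SPA1-RELATED 3-like gene, a partner of the ubiquitin ligase COP1 in light signalling. Its isoform TRINITY_DN15152_c0_g1_i10 had 209 and 240 normalized counts in hypergravity and 69.0 and 75.2 in control, and rose by 1.62 ± 0.18 (limma, adjusted p = 0.000132). Isoforms i6 and i8 rose by 1.61 ± 0.25 and 1.53 ± 0.18.

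Light receptors and their factors had 10 of 31 transcripts called lower (32.3%, against 11.9% of all transcripts) and 3 higher (9.68%, against 13.5%), with a median of -0.33. They lay in 6 and 2 of 16 assembled genes. All 3 phytochrome A transcripts, isoforms of 1 assembled gene for a red and far-red light receptor, were called lower. The transcript TRINITY_DN15562_c0_g1_i6 had 184 and 198 in hypergravity and 348 and 333 in control, and fell by 0.83 ± 0.13 (limma, adjusted p = 0.00133). PIF3-like, a factor that phytochromes destroy in the light, had 1239 and 1071 in hypergravity and 1733 and 2356 in control in TRINITY_DN9469_c0_g1_i9, and fell by 0.81 ± 0.14 (limma, adjusted p = 0.00221), as did its isoform i4. Phytochrome C was called lower too (-0.41), while the 2 phytochrome B transcripts were not called (-0.06 and 0.21). Of the blue-light receptors, 2 cryptochrome-1 isoforms of 1 assembled gene and 1 phototropin-2-like transcript were called higher and 1 cryptochrome-1-like transcript lower.

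Photoperiod output genes had 4 of 41 transcripts called higher (9.76%, against 13.5% of all transcripts) and 9 lower (22.0%, against 11.9%), with a median of -0.01. They lay in 4 and 5 of 18 assembled genes. Cyclic dof factors, which repress CONSTANS and are degraded by GIGANTEA with FKF1 in Arabidopsis, had 4 of 8 called lower and 1 higher, and summed to 1243 and 1305 in hypergravity and 2201 and 2247 in control. The transcript TRINITY_DN5740_c0_g1_i1 had 34.4 and 19.6 in hypergravity and 110 and 107 in control, and fell by 2.02 ± 0.28 (limma, adjusted p = 0.000627). A CONSTANS-LIKE 3-like transcript (TRINITY_DN23059_c0_g2_i2) had 12.5 and 14.4 in hypergravity and 50.3 and 80.8 in control, and a CONSTANS-LIKE 13-like one (TRINITY_DN3541_c2_g1_i1) had 34.4 and 60.8 against 178 and 210.4. The first fell by 2.17 ± 0.30 and the second fell by 2.06 ± 0.26. Of the 22 CONSTANS-LIKE transcripts 5 were called lower and 2 higher, and of the 11 FLOWERING LOCUS T relatives 1 was called higher.

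The last list held glycine-rich RNA-binding proteins, B-box zinc fingers and light-harvesting proteins, families with members that cycle through the day in other plants. Of its 51 transcripts 23 were called lower (45.1%, against 11.9% of all transcripts) and 0 higher by limma (13.5% of all transcripts), with a median of -0.33. The 23 lay in 10 of 23 assembled genes. Among transcripts of B-box zinc finger protein 20-like, of a family of light-signalling factors, TRINITY_DN54012_c0_g1_i5 had 121 and 127 in hypergravity and 280 and 408 in control and fell by 1.44 ± 0.19 (limma, adjusted p = 0.000384). The transcripts TRINITY_DN10290_c0_g1_i8 and TRINITY_DN54012_c0_g1_i2 had changes of -1.53 ± 0.31 and -1.44 ± 0.22, both called. The 33 glycine-rich transcripts, 15 of them called lower, summed to 92862 and 78996 in hypergravity and 114748 and 131415 in control, so the libraries of a group also differed. The 3 light-harvesting transcripts were not called and were low in all libraries, at a sum of 142 and 106 in hypergravity and 107 and 67.6 in control.

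**Figure D4:**
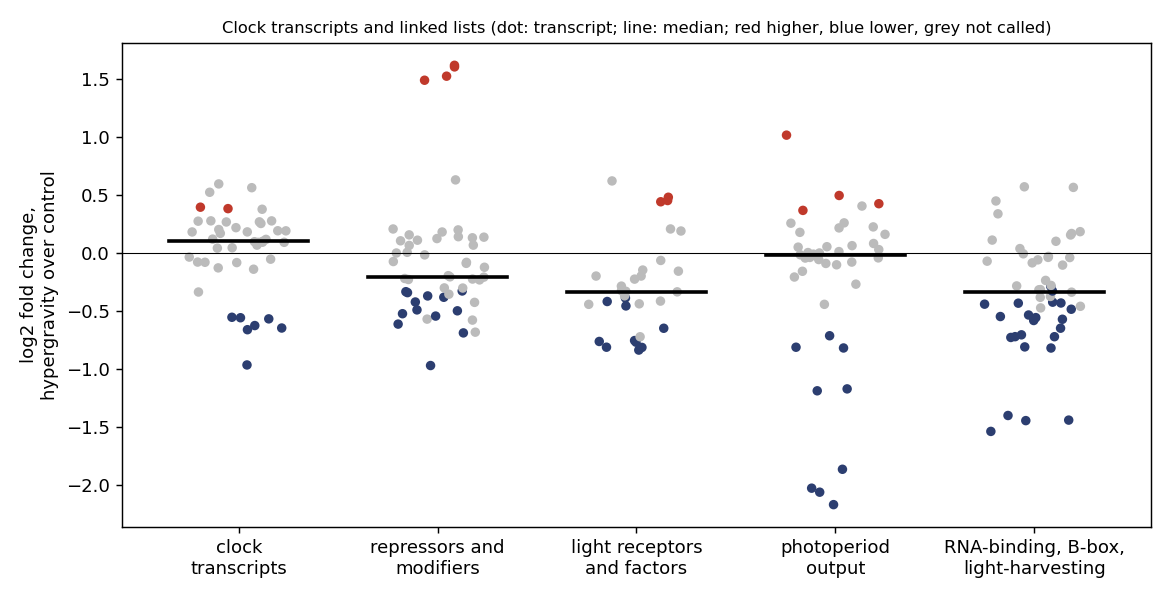
Log2 fold change of hypergravity over control for the 44 clock transcripts and 4 lists of linked genes, each dot a transcript and each line the median. Blue dots (called lower) are 23 of 51 in the list of RNA-binding, B-box and light-harvesting proteins, and the 4 red dots at the top of the regulators (called higher) are SPA1-RELATED 3-like isoforms.

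Clock names also stood in 41 rows that held 1 FPKM value per group, without replicates. Of these, 7 had goatgrass matches and were low, between 0.12 and 2.1 FPKM in hypergravity and between 0.26 and 1.0 FPKM in control. The other 34 had their best match outside the wheat relatives. Panicoid grasses (Setaria, Panicum and Sorghum) matched 20 of them and rice species 9. All 29 were higher in hypergravity, as were 12894 of all 13329 FPKM rows with a panicoid match and 1506 of 1747 with a rice match. Of the 29, 22 were listed at 0 FPKM in control and above 0 in hypergravity. The highest was a GIGANTEA transcript of Panicum match (TRINITY_DN638_c0_g1_i16) with 31.5 FPKM in hypergravity and 0 in control. It belongs to the same assembled gene as the wheat GIGANTEA isoforms. A PRR73 transcript of Setaria match (TRINITY_DN5596_c0_g1_i5) had 16.45 FPKM in hypergravity and 0 in control. For scale, GIGANTEA i15 came to 182 and 212 FPKM in hypergravity and 215 and 197 FPKM in control when computed from its recovered counts, a different denominator from that of the authors' FPKM.

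Rows of all names can be set beside them. Among all 13329 FPKM rows with a panicoid match 84.4% were listed at 0 in control and above 0 in hypergravity, among 1747 with a rice match 64.6%, among 10101 with a pooid match 11.1%, and among all 55815 rows 29.7%. Among FPKM rows, transcripts with a panicoid or rice match thus moved with the hypergravity group, and their part in the values of the wheat clock transcripts was not tested. With size factors taken from pooid matches alone, the 9 called clock transcripts were called again in the same direction. That scaling moved the log2 fold changes of all transcripts by a median of 0.0128 only. It changes the size factors and not the counts of a transcript, so it does not test that part. A REVEILLE 2-like transcript of cotton match was the only other clock row with values per library, at 187 and 171 normalized counts in hypergravity and 67.1 and 62.0 in control (1.46 ± 0.18).

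**Figure D5:**
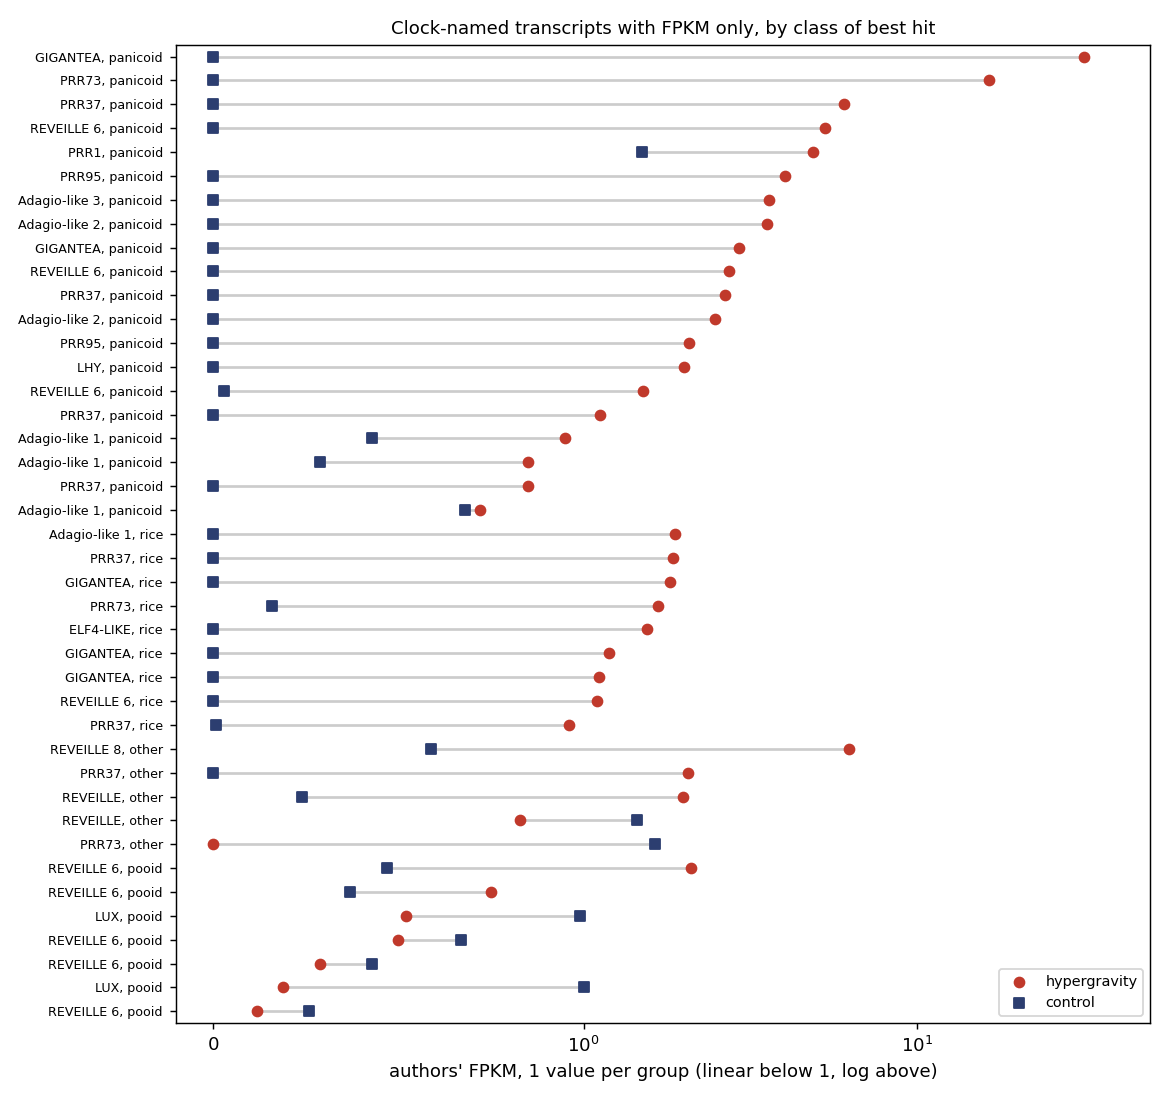
Authors' FPKM, 1 value per group, of the 41 clock-named transcripts without values per library, by class of best match (panicoid, rice, other, pooid), on an axis that is linear below 1 and logarithmic above. The red dots (hypergravity) lie right of the blue squares (control) in all 29 panicoid and rice rows, 22 of them with control at 0. Among FPKM rows of any name, 12894 of 13329 panicoid and 1506 of 1747 rice rows were higher in hypergravity.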

How the data were processed

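Every row of the deposited table held an assembled transcript with its length, best protein match and a single value for each condition, headed FPKM per the file headers. The submitters' processing notes name RSEM, without a version; the sources used here do not name the assembler, aligner or filters. In 91482 rows with long decimals, the deposited values are a signal that adds up both libraries of a condition, each as whole reads over its size factor. All of these (100%) split into whole counts within 1e-09. The size factors (0.959 and 0.971 in hypergravity, 1.01 and 1.06 in control) equalled median-of-ratios factors of those counts. Nothing ties the split libraries to replicate numbers, so they are called a and b. The lowest count was 9. Rows with at most 2 decimals were taken as the authors' FPKM and not tested.

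The test was limma 3.58.1 (R 4.3.3) on log2(normalized count + 1), hypergravity over control, with a mean-variance trend and Benjamini-Hochberg adjustment over all transcripts, or over assembled genes after summing. There were 2 residual degrees of freedom, with 7.91 added by the moderation. The steps were tested on simulated data. Members, lists, tests and alternatives were chosen with earlier results of these data known. Named transcripts were all called members, the member with the highest level per kilobase of each protein name, and up to 3 called transcripts per linked list with the largest change. Further isoforms and list members were named after their values were seen. Helicases of PIF name were left out. Copies of a gene on the wheat subgenomes were not separated. Alternatives changed the scaling, pseudocount, filter, variance model, threshold, name matching and libraries used. No sequences or genome positions were used.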

Additional observations from a re-analysis of the deposited data

Results flagged for a closer look

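Among clock-named transcripts outside the main test, 29 had a panicoid or rice best match, and 22 of them were listed at 0 FPKM in control and above 0 in hypergravity. The other 7 were above 0 in control as well and higher in hypergravity. Among FPKM rows of any name, 12894 of 13329 with a panicoid match and 1506 of 1747 with a rice match were higher in hypergravity. For clock names the share listed at 0 in control alone was 75.0% with a panicoid match and 77.8% with a rice match, beside 84.4% and 64.6% of all FPKM rows with such matches. These rows are given here because they lie outside the compared transcripts and exceed the control level. Each has 1 value per group, so no replicate check exists.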

How the results depend on the processing

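Over 13 alternative fits of 18 named transcripts, 218 of 234 values kept their direction and side of the threshold, 12 lost the call, 2 gained it and 2 turned sign (GIGANTEA i15, to 0.18 under quantile normalization and 0.042 without hypergravity library a; leaving out 1 library gave -0.20 to 0.042). PRR95, ELF4-LIKE 3-like and LHY-like i10 were called in every fit. Without a mean-variance trend LHY lost its calls (adjusted p 0.108 and 0.121), as did LHY-like i3 (0.0601), leaving 0 clock transcripts higher and 6 lower by limma; the cause was not tested. Leaving out single libraries gave 0 to 5 higher transcripts (0 without hypergravity b, 5 without hypergravity a) and 4 to 7 lower. At an adjusted p under 0.01, 0 were higher and 4 lower by limma. At an unadjusted p under 0.05 (limma), 16 of 44 passed in either direction, beside 34190 of all 91482 transcripts. With names matched inside longer words 10 were higher and 18 lower, since more transcripts counted as members, and with names in the protein description only, an alternative added after the data were seen, 2 and 6. Clock assembled genes called higher, 1 in the main fit, were 3 with total-count scaling and with pooid size factors, 2 under quantile normalization and with voom weights, 0 without the trend and at 0.01, and 0 to 2 without single libraries; the cause was not tested. No paired analysis was possible because the columns carry no replicate numbers.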

Other observations

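Further regulators named for the clock were measured and not called by limma. LNK1 and LNK2, coactivators of REVEILLE proteins in Arabidopsis, summed over 6 transcripts to 9694 and 10723 normalized counts in hypergravity and 10475 and 9919 in control. TIME FOR COFFEE-like transcripts summed to 10552 and 11277 in hypergravity and 10023 and 10181 in control over 4 transcripts. The histone demethylase JMJ30, whose transcript cycles in Arabidopsis, summed to 1665 and 1567 in hypergravity and 1983 and 1851 in control over 6 transcripts, with changes between -0.42 and -0.20. COP1 (3 transcripts) had a median change of 0.16, XAP5 (2 transcripts) of -0.20 and the light-signalling factor HY5 (3 transcripts) of -0.41, and 0 of these were called by limma.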
